A study of Mus musculus with 1279 samples.

Results

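Cluster 5 was 1 of 8 clusters that the authors had assigned to single cells of the adult mouse heart, and the study places it among the fibroblasts. Its members were all cells whose label gave the cluster as 5, which were 22.8% of 1279 cells, the other 987 carrying other cluster numbers. Of the members, 87 came from plate heart_203s and 97 from plate heart_316s, both of strain C57BL6, 1 was a Cspg4dsRED cell and 2 were Acta2GFP cells, and the rest, 35.96%, came from plate heart_320s of strain PdgfrbGFP. All mice were males of 10 to 20 weeks, and no treatment was given in the labels. C57BL6 mice carried no reporter and their cells were sorted with antibodies, whereas PdgfrbGFP mice expressed GFP from regulatory sequences of Pdgfrb, the gene of the platelet-derived growth factor receptor beta, and were sorted by that signal. All strains shared the C57Bl6/J background, and endothelial cells were gated out by CD31. The labels name no animal, and strain, sort and plate cannot be told apart. Each library was 1 cell, made with Smart-seq2, a plate-based method that reads along the whole transcript and has no molecular identifiers.

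Cardiac fibroblasts make and turn over the collagen matrix between the muscle cells and are recognised by Pdgfra and the transcription factor Tcf21. They also secrete chemokines, complement proteins and growth factors that act on immune cells and vessels, and on injury they can take on an activated state with periostin and smooth muscle actin. Fibroblasts of 1 organ differ in which of these programmes they use.

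Summed over its cells, cluster 5 had higher levels than clusters 2 to 4 of Inmt, a methyltransferase of small amines, of the secreted immune genes Cxcl14, Ccl11 and C3, of the stress-response gene Gadd45g, of the vasodilator peptide gene Adm and of the interferon-inducible gene Ifi205. Of these genes, Gadd45g was higher in cluster 3 than in cluster 5 on heart_320s. Cluster 5 had lower levels of the genes of the secreted proteins Postn, Cilp and Dkk3, though on 1 or more plates one of those clusters was still lower in each. Because the authors made the clusters from these same counts, every difference between cluster 5 and other clusters is a description and carries no test. Counts were summed over the cells of cluster 5 and over those of clusters 2 to 4 on each plate and scaled to the total gene count of the sum (CPM). The fold is the log2 ratio of the 2 sums with 1 CPM added to each, and triplets of values below are always in the order heart_203s, heart_316s and heart_320s. Means carry the SD over these 3 plates, which the labels do not tie to animals.

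The promoters of 4 genes that lead the description are shown first, as the 250 bases before and 50 bases after the start that RefSeq gives on GRCm38.p6, each 5′ to 3′ on the strand of its gene. Inmt (chr6:55174941-55175240, minus strand) and C3 (chr17:57228087-57228386, minus strand) were the well-detected genes 1 log2 or more above each of clusters 2, 3 and 4 on every plate, and Cxcl14 (chr13:56296502-56296801, minus strand) and Gadd45g (chr13:51846425-51846724, plus strand) were marker genes that came near cluster 5 in different neighbours, clusters 2 and 3. Capitals mark matches on either strand to the TATA box TATAAA, the C/EBP motif TTGCNNAA and the hypoxia response core ACGTG, which in Gadd45g was matched on both strands at overlapping positions.
Inmt: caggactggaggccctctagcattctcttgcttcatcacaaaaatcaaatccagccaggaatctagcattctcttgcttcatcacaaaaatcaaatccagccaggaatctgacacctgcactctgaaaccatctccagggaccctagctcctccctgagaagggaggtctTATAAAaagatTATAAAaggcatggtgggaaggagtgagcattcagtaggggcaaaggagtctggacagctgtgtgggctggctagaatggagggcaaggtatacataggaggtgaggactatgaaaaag
C3: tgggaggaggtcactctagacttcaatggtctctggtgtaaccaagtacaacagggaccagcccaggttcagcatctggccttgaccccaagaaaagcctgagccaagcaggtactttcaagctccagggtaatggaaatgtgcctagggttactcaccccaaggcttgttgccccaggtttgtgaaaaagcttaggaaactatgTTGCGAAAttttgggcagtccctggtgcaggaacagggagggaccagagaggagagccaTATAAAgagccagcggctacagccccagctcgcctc
Cxcl14: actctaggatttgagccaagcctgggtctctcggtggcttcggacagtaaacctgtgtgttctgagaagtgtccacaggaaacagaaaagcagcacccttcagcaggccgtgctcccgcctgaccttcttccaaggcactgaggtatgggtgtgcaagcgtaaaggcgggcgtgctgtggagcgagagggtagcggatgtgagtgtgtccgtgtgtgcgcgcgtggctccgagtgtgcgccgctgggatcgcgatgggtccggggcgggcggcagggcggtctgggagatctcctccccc
Gadd45g: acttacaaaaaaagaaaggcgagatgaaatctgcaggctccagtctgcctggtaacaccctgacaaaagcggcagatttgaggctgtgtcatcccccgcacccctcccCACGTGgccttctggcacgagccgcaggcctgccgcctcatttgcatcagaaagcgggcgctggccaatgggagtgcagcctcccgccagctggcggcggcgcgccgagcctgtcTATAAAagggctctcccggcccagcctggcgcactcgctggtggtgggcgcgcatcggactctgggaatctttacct
Inmt had TATAAA in 2 places, from -80 to -75 and from -69 to -64 relative to the start. C3 had the C/EBP letters at -45 to -38 and TATAAA at 15 to 20, and Cxcl14 had no match to any of the 5 motifs searched. Of the 15 genes most above clusters 2 to 4 among those with a count in at least 30% of the cells of the higher side on every plate, 12 had a promoter in the table. Of those 12, 5 (Inmt, Gadd45g, Ifi205, Steap4 and C3) held TATAAA, against 13.6% of 32851 promoters and 8.43% of the 8439 genes compared here that had a promoter. A gene counted if any of its promoters matched. TTGCNNAA was in 3 of the 12 (Steap4, C3 and Teddm2), against 10.8% of all promoters and 9.93% of the genes compared, and ACGTG in 2 (Gadd45g and Egr2), against 19.6% and 30.4%. The AP-1 motif TGANTCA (7.81% and 5.90%) and the EGR motif GCGNGGGCG (5.55% and 12.8%) were in 0 of the 12. Of the 15 genes furthest below clusters 2 to 4 under the same limit, 10 had a promoter in the table, and of these 2 held TATAAA (Postn and Fstl3), 1 TTGCNNAA (Postn), 1 ACGTG (Fstl3), 2 the EGR motif (Cd200 and Col8a1) and 0 the AP-1 motif. A match is a run of letters in this window and says nothing of binding.

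Fibroblast markers were at similar levels in cluster 5 and in its neighbours. The summed level of 10 fibroblast markers (Pdgfra, collagens I and III, Dcn, Lum, Gsn, Tcf21, Ddr2 and Pdgfrb) was 25483 to 29130 CPM in cluster 5 over the 3 plates and 23747 to 27321 CPM in clusters 2 to 4. Pdgfra itself, the receptor that defines these cells, had 515, 476 and 391 CPM in cluster 5 and 513, 477 and 431 CPM in clusters 2 to 4. Genes of other cell types were at low levels. The 5 pericyte markers summed to between 71.2 and 137.98 CPM in cluster 5 and between 43.3 and 207.5 CPM in its neighbours, the 4 smooth muscle markers to 16.4 to 72.8 against 62.8 to 160.4 CPM, and the 6 markers of valve interstitial cells to 21.6 to 118.9 against 164.9 to 214.7 CPM. The 7 endothelial markers summed to 77.3 to 129.4 CPM with Emcn and Cldn5 at 0, the 6 immune markers to 9.79 to 114.7 CPM with Cd3e at 0, the 4 Schwann cell markers to 14.1 to 45.004 CPM with Sox10 at 0 and the 9 cardiac muscle markers to 28.95 to 63.2 CPM. Epicardial markers did not exceed 0.219 CPM, with 5 of 6 at 0, and adipocyte markers 0.146 CPM, with 3 of 4 at 0.

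Cells of cluster 5 were somewhat shallower than their neighbours. Their median total count was 320278, 155530 and 258408 on the 3 plates, against 349816, 209198 and 314099 in clusters 2 to 4, and single cells ranged from 50133 to 726478. They had a median of 4208, 2747 and 3462 genes with a count, against 4510, 3289 and 3793. The share of spike-in counts was 1.73%, 2.68% and 2.18% in cluster 5 and 1.65%, 2.04% and 1.77% in clusters 2 to 4, and that of mitochondrial counts 1.51%, 2.37% and 1.74% against 1.46%, 1.74% and 1.48%. The part of depth in the differences below was not tested by itself, and values from cells thinned to equal depth are given where they differ.

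Cluster 5 held 26.4% of all cells on heart_203s (95% Wilson interval 21.97 to 31.5%), 38.6% on heart_316s (32.8 to 44.8%) and 28.8% on heart_320s (24.4 to 33.7%). Among clusters 2 to 5 alone, the shares were 31.5%, 39.1% and 49.1%, so that the PdgfrbGFP plate was the highest by this measure and not by the other. It was 0.613% of Cspg4dsRED cells and 1.17% of Acta2GFP cells. The sort sets which cells reach a plate, and the intervals cover counting error only.

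Inmt (indolethylamine N-methyltransferase, ENSMUSG00000003477, chr6:55170626-55175043, minus strand on GRCm38) had the highest mean fold over the plates of the 6 markers given for the cluster. On heart_316s its fold was 2.41 log2, below the 3.09 log2 of Ccl11. Inmt was at 1078, 1050.0 and 648 CPM in cluster 5 and at 188.03, 196.9 and 177.9 CPM in clusters 2 to 4, so that every plate of cluster 5 was above every plate of the others, and its fold was 2.26 ± 0.35 log2 (SD, n = 3 plates). Its mean level was 225.4, 47.6 and 204.4 CPM in clusters 2, 3 and 4, and the smallest of the 9 folds against 1 cluster on 1 plate was 1.45 log2. It was the only one of the 6 markers above each of these clusters by 1 log2 or more on every plate. Cluster 1, which the study also counts among the fibroblasts, had 16, 3 and 22 cells on the 3 plates and entered no comparison. Its sums were 7.51, 122.9 and 156.1 CPM for Inmt and 13.04, 156.9 and 81.9 CPM for C3, while Gadd45g was higher in its 3 cells on heart_316s, at 1054 CPM, than in cluster 5.

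The other markers were less far above their next highest cluster, by 0.18 (Cxcl14) to 1.36 log2 (Ccl11) against 2.10 log2 for Inmt. Cxcl14 (ENSMUSG00000021508, chr13:56288643-56296551, minus strand), a chemokine of epithelia and stroma, was at 892, 934 and 648 CPM against 283.1, 401 and 258.96 CPM (fold 1.40 ± 0.23 log2). Its mean level was 730.2, 18.9 and 74.7 CPM in clusters 2, 3 and 4 and 825 CPM in cluster 5, which sets clusters 2 and 5 apart from the other two. Ccl11 (ENSMUSG00000020676, chr11:82057823-82062955, plus strand), the eosinophil chemokine eotaxin, was at 413, 230.7 and 202.7 CPM against 103.2, 26.1 and 75.95 CPM (2.16 ± 0.86 log2), with means of 111.6, 74.6 and 47.6 CPM in clusters 2, 3 and 4. On heart_320s cluster 3 was at 194.3 CPM, near cluster 5, but only 1 of its 7 cells there reached 100 CPM. Gadd45g (ENSMUSG00000021453, chr13:51846678-51848468, plus strand), an inhibitor of cell cycle progression that is induced by stress, was at 898, 571 and 673 CPM against 335, 267.1 and 242.6 CPM (1.33 ± 0.20 log2). For this gene the neighbour was cluster 3, with means of 161.9, 615 and 289.3 CPM in clusters 2, 3 and 4. Cluster 3 was at 501, 564 and 779 CPM on the 3 plates, close to cluster 5 on heart_316s and above it on heart_320s. Adm (ENSMUSG00000030790, chr7:110627661-110629820, plus strand), which encodes the vasodilator adrenomedullin and responds to hypoxia, was at 476, 749 and 503 CPM against 171.4, 241.95 and 217.9 CPM (1.43 ± 0.21 log2). Gm28863 overlaps Adm on the opposite strand. Ifi205 (ENSMUSG00000054203, chr1:174011998-174031810, minus strand), of the interferon-inducible Ifi200 family, was at 414, 491 and 442 CPM against 133.2, 162.8 and 169.9 CPM (1.53 ± 0.14 log2). Both were next highest in cluster 2, with 422 CPM for Adm and 262.5 CPM for Ifi205, and lowest in cluster 3, with 52.7 and 16.2 CPM. The Ifi200 genes are close copies of each other, and how the counting shared reads among them is not known. For each of the 6 genes the values of cluster 5 lay above those of clusters 2 to 4 without overlap over the 3 plates, as they did for 4.26% of the 11162 genes compared, and the 6 were given as markers of this cluster.

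**Figure D1:**
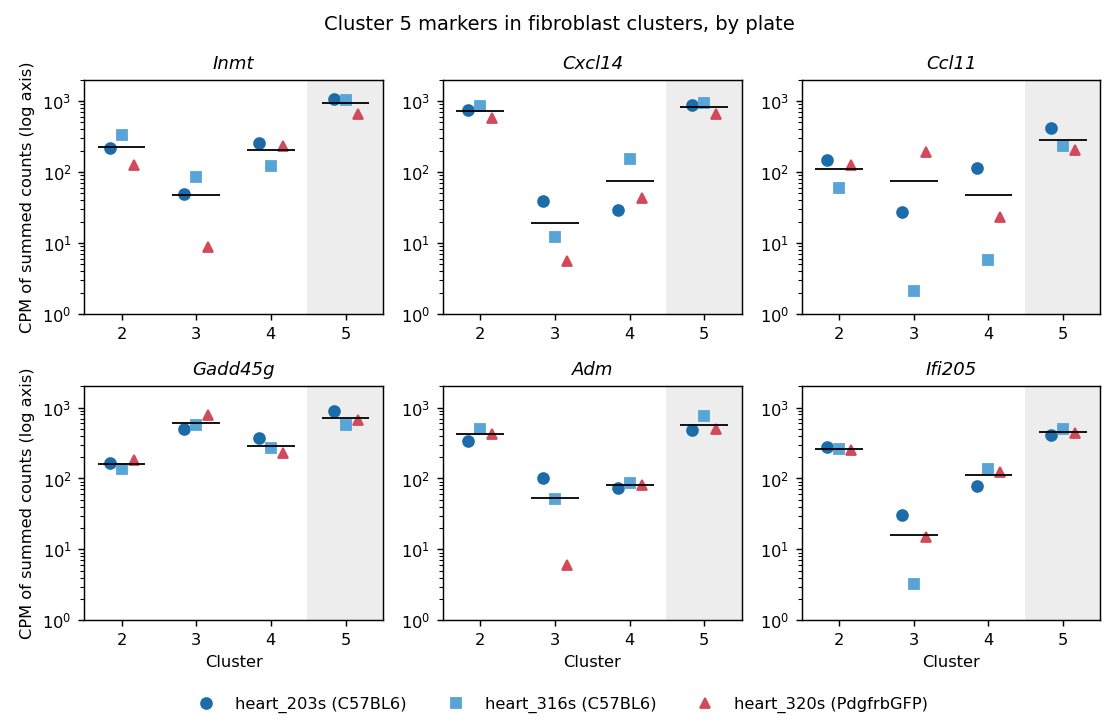
Level of the 6 marker genes in CPM on a log axis, as sums over the cells of clusters 5, 2, 3 and 4, with 1 point per plate and a line at the mean, cluster 5 shaded. Inmt is highest in cluster 5 on every plate. By the mean, Cxcl14, Adm and Ifi205 are next highest in cluster 2 and Gadd45g in cluster 3, where it is above cluster 5 on heart_320s.

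Most single cells of clusters 2 to 5 had a count of Inmt, and fewer had a high level. Any count of Inmt was found in 98.9%, 87.6% and 82.9% of the cells of cluster 5 and in 93.7%, 80.1% and 78.9% of those of clusters 2 to 4. The mural clusters 7 and 8, which served as background, had a count in 88.2% of their cells on heart_203s and 53.1% on heart_320s. With every cell thinned to 50000 counts, Inmt had a count in 82.8%, 80.4% and 49.5% of the cells of cluster 5, in 52.3%, 65.5% and 44.9% of cluster 2, in 38.2%, 37.1% and 14.3% of cluster 3 and in 56.5%, 36.2% and 39.6% of cluster 4, and in 44.1% and 32.3% of the mural cells. At equal depth cluster 5 was thus the highest on each plate, by the least on heart_320s. A level of 100 CPM or more, a threshold chosen after the values were seen, was reached in 72.4%, 54.6% and 34.3% of the cells of cluster 5, in 27.7%, 36.2% and 12.2% of cluster 2, in 3.64%, 5.71% and 0% of cluster 3 and in 28.99%, 15.5% and 15.1% of cluster 4. In the mural clusters, no cell of heart_203s or heart_320s reached it. The share of cluster 5 cells at 100 CPM was 43.7%, 41.2% and 33.3% for Cxcl14, close to the 43.1%, 43.1% and 34.7% of cluster 2, 48.3%, 44.3% and 40.95% for Adm, where cluster 2 had 50.8%, 43.1% and 36.7%, and 74.7%, 43.3% and 51.4% for Gadd45g, where cluster 3 had 60%, 42.9% and 71.4%. Ccl11 was the least widespread at 35.6%, 13.4% and 13.3%, against 16.9%, 6.90% and 10.2% in cluster 2, and Ifi205 was at 75.9%, 54.6% and 57.1%, against 60%, 44.8% and 48.98%. Cluster 5 thus held cells with and without a high level of each marker.

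**Figure D2:**
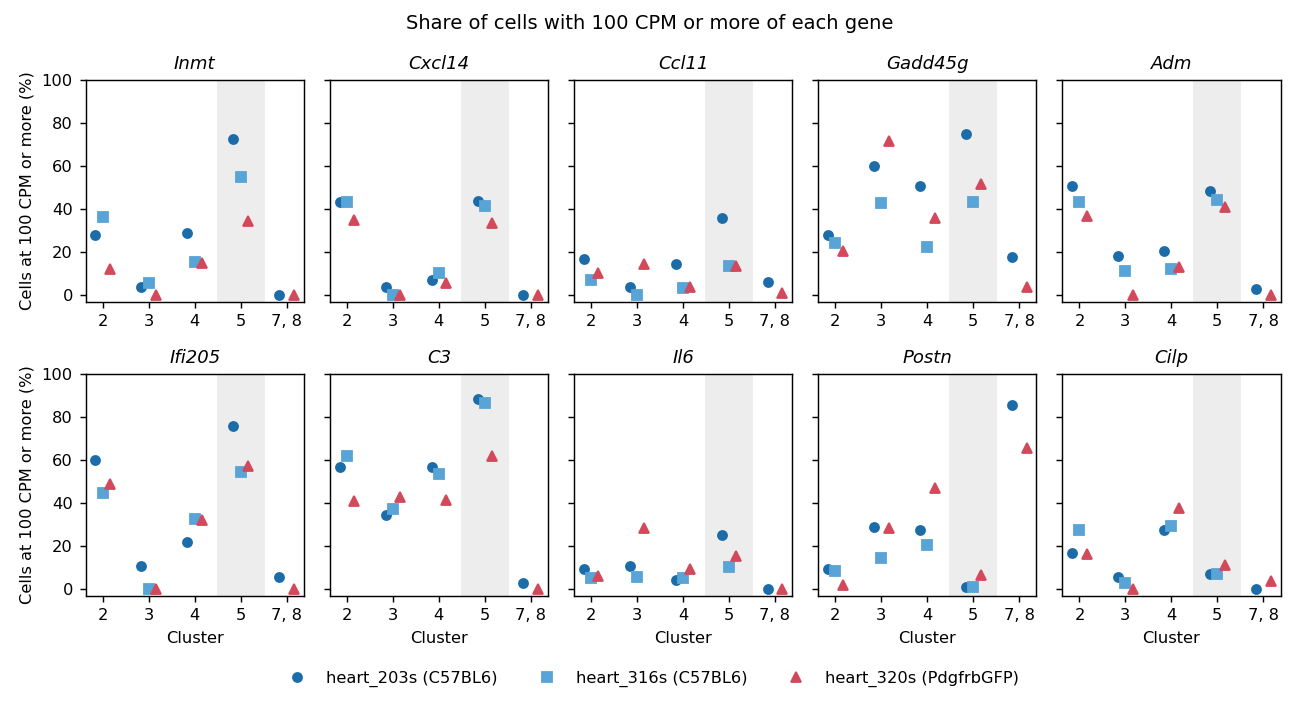
Share of single cells (percent) at 100 CPM or more of each marker and of C3, Il6, Postn and Cilp, with 1 point per plate, in clusters 2 to 5 and in the mural clusters 7 and 8 together. Inmt runs from 34.3% to 72.4% of the cells of cluster 5 and stays at 36.2% or less in clusters 2 to 4. Postn is at 6.67% or less in cluster 5 and at 9.23% or less in cluster 2.

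The 6 markers were found together in single cells to different degrees. At least 3 of them reached 100 CPM in 78.2% of the cells of cluster 5 on heart_203s, 52.6% on heart_316s and 42.9% on heart_320s. The same held for 43.1%, 37.9% and 18.4% of cluster 2, for 17.4%, 8.62% and 5.66% of cluster 4 and for 0%, 2.86% and 0% of cluster 3. All 6 reached it in 6 of 87 cells of cluster 5 on heart_203s, 1 of 97 on heart_316s and 0 on heart_320s, and in 1 cell of cluster 2 on heart_320s. None of the 6 did in 1, 9 and 13 cells of cluster 5. Across the cells of cluster 5 on 1 plate, rank correlations between pairs of markers ran from -0.17 to 0.43, and of the 15 pairs 0 were above 0.2 on all 3 plates. These points share their library plate and depend on depth. The rank correlation of a marker with the total count ran from -0.14 to 0.33. With every cell thinned to 50000 counts, 4 or more markers had a count in 70.1%, 55.7% and 47.6% of the cells of cluster 5 and in 43.1%, 41.4% and 24.5% of those of cluster 2. Without thinning the shares were 97.7%, 77.3% and 85.7% against 96.9%, 82.8% and 85.7%, and the 2 clusters were apart in this measure only after thinning.

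Over all genes, few differed between cluster 5 and its neighbours on every plate. Of 11162 genes with a mean of 5 CPM or more over the 6 sums, 58 were higher in cluster 5 by 1 log2 or more on all 3 plates, which was 0.520% of the genes tested, and 1.41% were lower by as much. The median fold of all genes was -0.12 log2. With median of ratios scaling the median was -0.02 log2 and 78 genes (0.699%) were higher and 1.14% lower, so that 38.05% of the called genes were higher in place of 26.98%. With every cell thinned to 50000 counts, 33 of the 58 higher and 99 of the lower genes were called again. Cluster 3 gave 55, 35 and 7 cells to the sums of clusters 2 to 4. With equal weight of clusters 2, 3 and 4, 0.547% of genes were higher, 47 of the 58 among them, and 1.33% were lower. Where 2 plates had to pass in place of 3, 2.32% were higher and 4.93% lower without heart_203s, 1.47% and 3.55% without heart_316s and 1.61% and 3.70% without heart_320s. The lists below are read against the median of -0.12 and against the 0.520% higher and 1.41% lower. Over all genes, 11.9% had a positive and 20.0% a negative fold on all 3 plates. Most of these genes were found in few cells, and 15 of the 58 higher and 16 of the lower genes had a count in at least 30% of the cells of the higher side on every plate. In all, 54 of the 58 and 96.2% of the lower genes were protein coding.

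**Figure D3:**
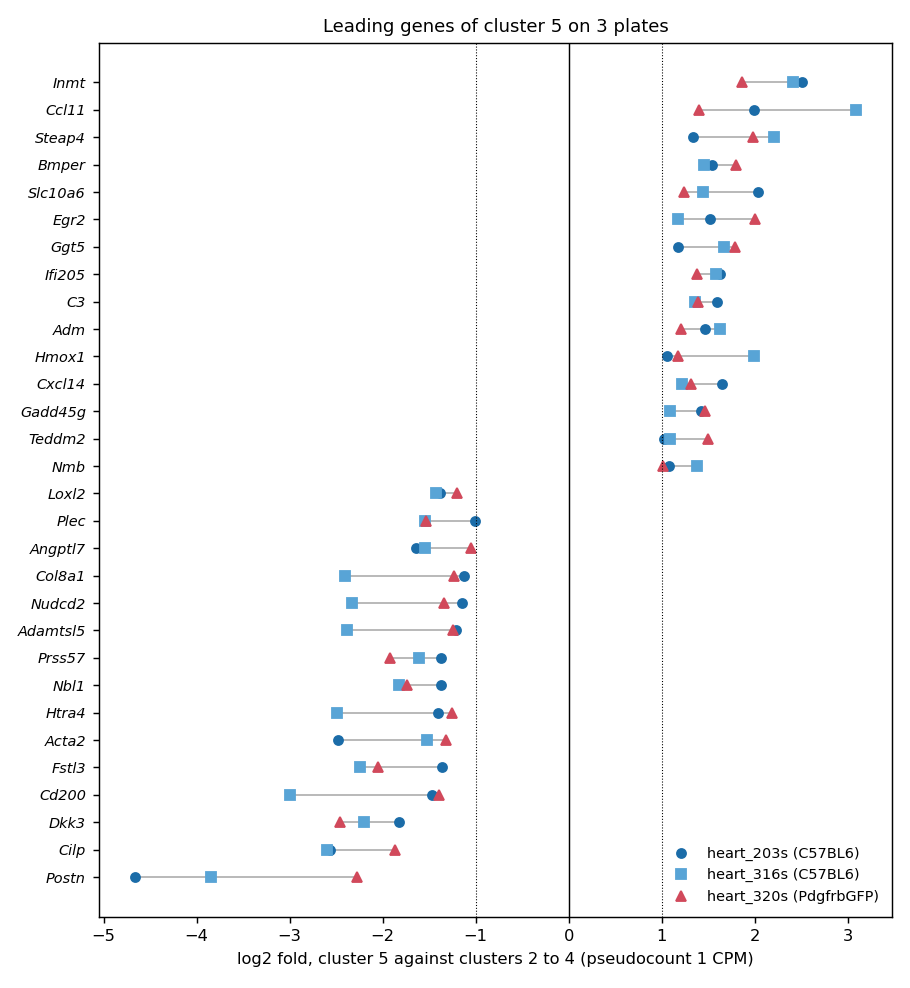
Fold of cluster 5 over clusters 2 to 4 in log2 units for the leading genes in each direction, with 1 point per plate, a grey line over their range and dotted lines at 1 and -1. By the mean over plates, Inmt at 2.26 is the highest of these genes and Postn at -3.59 the lowest.

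All 6 markers were among the 15 widely detected genes that were higher, and the other 9 were Steap4, Bmper, Slc10a6, Egr2, Ggt5, C3, Hmox1, Teddm2 and Nmb. Steap4 (ENSMUSG00000012428, chr5:7960457-7982213, plus strand), a metalloreductase for iron and copper, was at 210.4, 187.6 and 275.1 CPM in cluster 5 and 82.4, 39.7 and 68.8 CPM in clusters 2 to 4 (fold 1.85 ± 0.45 log2). Hmox1 (heme oxygenase), which breaks down heme and releases iron, was at 242.9, 250.01 and 373 against 116.1, 62.2 and 164.5 CPM (1.41 ± 0.51 log2). Both of these genes of iron handling were next highest in cluster 3. Ggt5, an enzyme that cleaves glutathione conjugates and leukotriene C4, was at 284.7, 226.6 and 251.4 against 125.1, 70.7 and 72.3 CPM (1.54 ± 0.32 log2) and next highest in cluster 2. Bmper, a secreted regulator of bone morphogenetic protein signalling, was at 191.5, 251.8 and 150.4 against 65.1, 91.3 and 42.4 CPM (1.60 ± 0.18 log2). Nmb, the gene of the peptide neuromedin B, was at 126.3, 142.1 and 125.97 against 59.3, 53.9 and 61.9 CPM (1.16 ± 0.20 log2), with a mean of 118.7 CPM in cluster 2. Slc10a6, a transporter of sulfated steroids, had a fold of 1.57 ± 0.41 log2. The gene Gm15844 lies within its span on the opposite strand and was also higher, and as the strand setting of the counting was not stated, reads of the pair cannot be told apart. Teddm2 (1.20 ± 0.25 log2) spans several other genes, Glul among them, and Nmb overlaps Sec11a. The zinc finger factor Egr2 was at 338, 168.9 and 81.02 against 117.1, 74.4 and 19.4 CPM (1.57 ± 0.42 log2). It was higher than the sum of clusters 2 to 4 within every plate, but its lowest plate of cluster 5 was below the highest of clusters 2 to 4. Cluster 3 was next highest for Egr2, at a mean of 116.6 CPM, and on heart_320s was above cluster 5, at 89.7 CPM.

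C3 (ENSMUSG00000024164, chr17:57203970-57228136, minus strand), the central component of complement, was at 1902, 1629 and 973 CPM in cluster 5 against 631, 635 and 369 CPM. Its fold was 1.45 ± 0.13 log2, and 100 CPM or more was reached in 88.5%, 86.6% and 61.9% of the cells of cluster 5. Means in clusters 2, 3 and 4 were close to each other at 577, 477 and 566 CPM. C3 and Inmt were the only genes with a count in at least 30% of the cells of cluster 5 on every plate among the 10 genes that were 1 log2 or more above each of clusters 2, 3 and 4 on all 3 plates (0.0896% of 11162 genes).

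The other 8 of those 10 were carried by few cells. Alkal2, a ligand of the receptor tyrosine kinases ALK and LTK, was the most widespread of them. It was at 118.7, 146.4 and 95.04 CPM in cluster 5 against 10.97, 8.51 and 3.95 CPM in clusters 2 to 4 (fold 3.85 ± 0.49 log2) and had a count in 39.1%, 25.8% and 20% of the cells of cluster 5. Hp, the gene of the plasma protein haptoglobin, had 2.96, 53.001 and 28.4 CPM with a count in 1.15%, 12.4% and 3.81% of the cells, the first being 1 cell. It was at 0.265 CPM or less in clusters 2 to 4, with a count in 0%, 7.28% and 4.59% of their cells. The epidermal growth factor receptor ligand Btc was at 16.7, 8.49 and 9.24 against 1.65, 0.0724 and 0.0811 CPM, and Dgat2, which makes triglycerides, at 12.4, 23.8 and 8.36 against 2.47, 3.86 and 0.460 CPM. Akap1, Tmprss6 and Gm15844 were also among the 10. With every cell thinned to 50000 counts, 6 of the 10 were called again. Only 2 genes (0.0179%) were 1 log2 or more below each cluster on every plate. These were Nudcd2, a cochaperone of HSP90, at 37.99, 15.6 and 42.3 against 85.3, 82.7 and 108.3 CPM, and the noncoding 9330151L19Rik. In thinned cells and with a pseudocount of 5 CPM, 0 genes were below each cluster, and 15 to 35 were with 1 plate left out. Against 1 cluster at a time, 1.76% of the genes were higher and 1.00% lower than in cluster 2, 4.38% higher and 0.941% lower than in cluster 3, and 1.59% higher and 1.74% lower than in cluster 4. Cluster 3 had 7 cells on heart_320s, and the 9 comparisons share their sums of cluster 5.

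**Figure D4:**
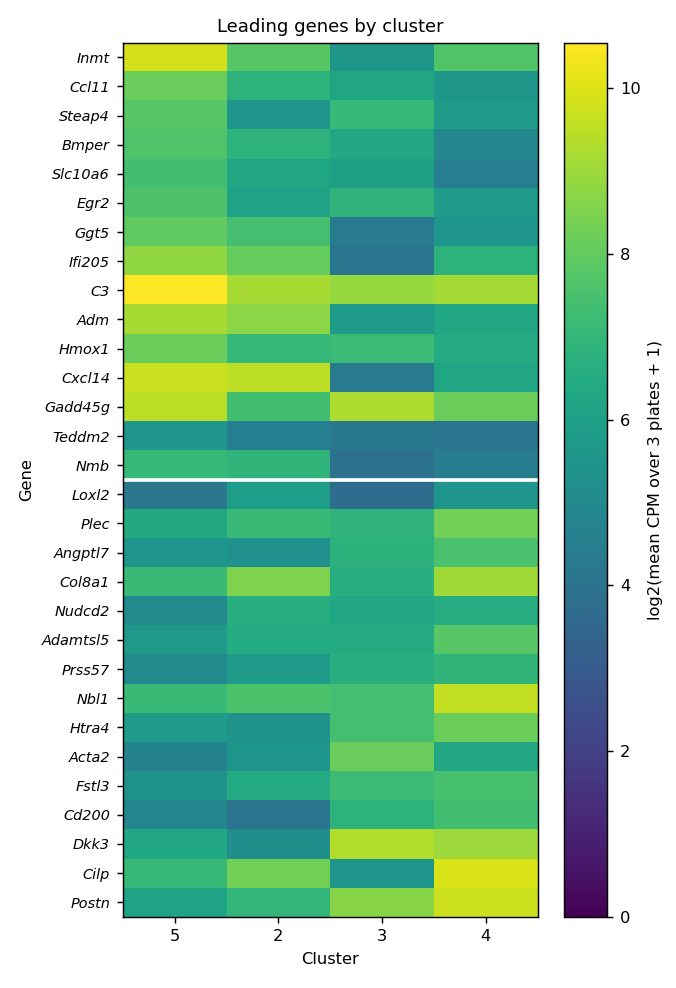
Mean level over the 3 plates, as log2 of CPM plus 1 on a colour scale, of the leading higher genes (above the white line) and lower genes (below it) in clusters 5, 2, 3 and 4. Most higher genes have cluster 2 as their next highest cluster, whereas Postn, Cilp, Cd200 and Nbl1 are highest in cluster 4.

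Among the 16 lower genes that were widely detected, Postn and Cilp had the largest folds. Igfbp5 and Thbs4, described with their lists, were further below the sum of clusters 2 to 4 than Postn but were found in fewer cells. Of the 15 leading lower genes, only Acta2 and Nudcd2 were below each of clusters 2, 3 and 4 on every plate. Postn (periostin, ENSMUSG00000027750, chr3:54361109-54391037, plus strand), a matricellular protein of remodelling tissue, was at 14.7, 21.2 and 172.3 CPM in cluster 5 and 399, 317 and 837 CPM in clusters 2 to 4, a fold of -3.59 ± 1.21 log2. Cluster 5 lay below clusters 2 to 4 without overlap, as for 7.59% of all genes compared, and the PdgfrbGFP plate was the highest in both. Its means in clusters 2, 3 and 4 were 123.6, 413 and 856 CPM. Cluster 2 was above cluster 5 on the C57BL6 plates, at 137.7 and 218.7 CPM, and below it on the PdgfrbGFP plate, at 14.2 CPM. A level of 100 CPM was reached in 1.15%, 1.03% and 6.67% of the cells of cluster 5 and in 9.23%, 8.62% and 2.04% of those of cluster 2. Cilp (ENSMUSG00000042254, chr9:65265180-65280605, plus strand), a cartilage matrix protein also made in the heart, was at 46.8, 90.2 and 268.04 against 281.2, 552 and 979 CPM (-2.34 ± 0.41 log2). It was low in cluster 3 too, at a mean of 45.1 CPM. Acta2, the smooth muscle actin of myofibroblasts and mural cells, was at 8.68, 15.4 and 52.4 against 52.99, 46.02 and 132.3 CPM (-1.77 ± 0.62 log2), with values of the groups overlapping between plates but not within one. The mural clusters 7 and 8 also had Postn, with 85.3% of their cells at 100 CPM or more on heart_203s and 65.6% on heart_320s. The plate heart_316s had no cells of those clusters, and its folds were -3.84 log2 for Postn and -1.52 log2 for Acta2.

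Other widely detected lower genes differed in which of clusters 2 to 4 was nearest to cluster 5. Dkk3, a secreted protein of the Dickkopf family, was at 90.8, 80.9 and 57.6 against 325, 376 and 320.4 CPM (-2.16 ± 0.32 log2), and Cd200, a surface protein that restrains myeloid cells, at 33.4, 12.6 and 35.6 against 94.02, 107.4 and 95.4 CPM (-1.95 ± 0.91 log2). Both had a lower mean in cluster 2 than in cluster 5, with 36.9 CPM for Dkk3 and 15.7 CPM for Cd200 there. The protease gene Htra4 (-1.72 ± 0.67 log2) and Angptl7 (-1.41 ± 0.32 log2, overlapping Mtor) were also lowest in cluster 2. By contrast, the short-chain collagen gene Col8a1 was at 118.6, 87.5 and 204.2 against 259.4, 469 and 479.6 CPM (-1.59 ± 0.71 log2) and was low in cluster 3, at 97.9 CPM, not in cluster 2, at 363 CPM. Loxl2, a crosslinking enzyme of collagen, was also low in cluster 3, with means of 56.99, 12.9 and 44.2 CPM in clusters 2, 3 and 4 against 17.2 CPM in cluster 5 (-1.34 ± 0.12 log2). Nbl1, an antagonist of bone morphogenetic proteins, was at 166.96, 121.5 and 138.1 against 432, 433 and 462 CPM (-1.64 ± 0.24 log2) and was highest in cluster 4, with means of 186.2, 166.8 and 761 CPM in clusters 2, 3 and 4. Fstl3, an inhibitor of activin, was at 61.6, 29.4 and 31.9 against 159.4, 143.1 and 135.3 CPM (-1.88 ± 0.47 log2), and its means of 85.8, 150.6 and 179.03 CPM in clusters 2, 3 and 4 were above the 40.9 CPM of cluster 5. On heart_320s, however, the 7 cells of cluster 3 had 1.85 CPM, below the 31.9 CPM of cluster 5. The serine protease gene Prss57 overlaps it on the opposite strand and had a fold of -1.63 ± 0.27 log2, and reads of this pair cannot be told apart. Adamtsl5 and the cytoskeletal linker Plec had folds of -1.61 ± 0.67 and -1.36 ± 0.31 log2.

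The chemokine and cytokine list had 16 genes above the minimum, and 3 of them were higher and 0 lower, against 0.520% and 1.41% of all genes. As the clusters were made from these counts, nothing is read from this count. Its median fold was 0.65 log2 against -0.12 over all genes. Beside Cxcl14 and Ccl11, Il6, an inflammatory cytokine, was at 249.2, 78.98 and 201.1 CPM in cluster 5 and 27.6, 34.6 and 90.3 CPM in clusters 2 to 4 (1.81 ± 1.14 log2), while cluster 3 had 51.2, 35.4 and 730.3 CPM, the last from 7 cells, and was above cluster 5 on heart_320s and below it on the C57BL6 plates. It reached 100 CPM in 25.3%, 10.3% and 15.2% of the cells of cluster 5. Cxcl10, which is induced by interferon gamma, had 2.96, 0.361 and 5.44 against 14.4, 24.6 and 6.41 CPM. In the complement list, 1 of 13 genes was higher, C3, and 0 were lower (median 0.29 log2). C4b was at 242.4, 172.7 and 25.7 against 52.9, 40.5 and 29.8 CPM, above the sum of clusters 2 to 4 on the C57BL6 plates and not on the PdgfrbGFP plate. Of 22 interferon response genes, Ifi205 was higher and 0 were lower (median -0.10 log2), and Isg15 had 9.11, 0.587 and 3.61 against 15.7, 9.09 and 15.8 CPM. In that list 8 genes had a positive and 5 a negative fold on all 3 plates, and the family member Ifi204 was at 90.9, 96.1 and 40.5 against 22.5, 58.3 and 28.02 CPM. Of 7 antigen presentation genes 0 were called in either direction (median 0.11 log2), and H2-K1 had 908, 999 and 817 against 853, 755 and 686 CPM. Of 17 interleukin and death receptor genes 0 were called (median -0.01 log2). Il1r1, the receptor of interleukin 1, was at 93.7, 135.2 and 108.2 against 53.97, 74.9 and 51.6 CPM (0.89 ± 0.14 log2).

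Immediate early genes, which respond within minutes to growth factors and stress, lay mostly above the sum of clusters 2 to 4 by less than the threshold. Of 25 genes, Egr2 was higher and 0 were lower, while 20 had a positive fold on all 3 plates and 0 a negative one (median 0.47 log2), against 11.9% and 20.0% of all genes. Their summed level was 35519, 24937 and 30975 CPM in cluster 5, 24714, 19696 and 20574 CPM in cluster 2, 29369, 29345 and 28795 CPM in cluster 3 and 21372, 17625 and 19373 CPM in cluster 4. Cluster 3 was therefore above cluster 5 on heart_316s and below it on the other plates. Fosl2 was at 172.4, 58.8 and 76.9 against 54.96, 32.1 and 11.98 CPM, and Myc at 484, 401 and 275.4 against 146.99, 259.4 and 227.7 CPM. In cluster 3 Myc was at 244.6, 474.5 and 650.3 CPM, above cluster 5 on heart_316s and heart_320s. Heat shock genes were 0 of 12 in both directions, with 7 positive on all 3 plates (median 0.40 log2). The cochaperone genes Dnajb1 and Bag3 had folds of 0.88 ± 0.20 and 0.90 ± 0.32 log2. Both lists are also known to respond to tissue dissociation, and the part of cell isolation in these values was not tested. Of 12 Gadd45 and p53 target genes, Gadd45g was higher and 0 were lower (median -0.02 log2), and its relative Gadd45b was at 370.4, 326 and 421 against 226.99, 176.8 and 138.2 CPM (1.06 ± 0.47 log2). Cluster 3 had 237.1, 166.4 and 862.6 CPM of Gadd45b, the last from 7 cells and above cluster 5.

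The glucocorticoid response list had 0 of 14 genes called and a median of 0.62 log2. Its transcription factor genes Cebpb and Cebpd, whose products bind the C/EBP motif printed above, were at 84.4, 204.1 and 70.7 against 35.5, 106.6 and 37.6 CPM (1.02 ± 0.18 log2) and at 1686, 996 and 1501 against 779, 696 and 803 CPM (0.84 ± 0.30 log2). The metallothionein gene Mt2 was at 253.1, 99.1 and 205.6 against 98.2, 91.5 and 70.8 CPM. The hypoxia list had Adm as its 1 higher gene of 14 and 0 lower (median 0.12 log2). Egln3, a hypoxia-induced prolyl hydroxylase, had 2.79, 0.0452 and 0.0730 against 6.43, 5.67 and 23.6 CPM, below the sum of clusters 2 to 4 on each plate. It was at 0 CPM in cluster 3 on all 3 plates and highest in cluster 2, at a mean of 20.7 CPM. Of 21 genes of one-carbon and xenobiotic metabolism, Inmt was higher and the quinone reductase gene Nqo1, at 0, 0.316 and 5.08 against 4.70, 31.8 and 14.1 CPM, was lower (median 0.32 log2). Of 20 lipid genes Dgat2 was higher and 0 were lower (median 0.01 log2), and Apod, the gene of a secreted lipid carrier, had 288.8, 198.5 and 311 against 117.3, 142.4 and 149.3 CPM. Of 20 genes of oxidative phosphorylation 0 were called (median 0.01 log2).

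Among the matrix lists, the matricellular and activation genes held the most lower genes. Of 20, 0 were higher and 5 were lower (Thbs4, Postn, Cilp, Acta2 and Loxl2), against 1.41% of all genes, with a median of -0.44 log2. Thbs4 (thrombospondin 4) was at 1.04, 1.27 and 10.4 against 33.4, 93.2 and 101.4 CPM (-4.21 ± 1.11 log2). Its mean was 151.1 CPM in cluster 4, while clusters 2 and 3 were low like cluster 5, with means of 9.95 and 5.09 CPM against 4.22 CPM. The matricellular list had 5 genes with a positive and 13 with a negative fold on all 3 plates. Of 7 fibrillar collagen genes, Col27a1 was lower and 5 were negative on all 3 plates with 0 positive (median -0.18 log2), and Col5a3 had 119.6, 162.6 and 85.7 against 249.99, 248.99 and 189.4 CPM. Of 13 other collagen genes, Col8a1 was lower and 8 were negative on all 3 plates with 0 positive (median -0.36 log2). Of 22 genes of elastic fibres and adhesive matrix, Ltbp2, which binds fibrillin, was lower (median -0.01 log2), while Efemp1 had 488, 390.4 and 362 against 219.9, 154.7 and 233.2 CPM. Of 11 small leucine-rich proteoglycan genes 0 were called (median 0.16 log2). In that list Aspn had 217.1, 253.7 and 367 against 504, 439 and 776 CPM and Podn 376, 392 and 413 against 250.4, 240.3 and 283.7 CPM, with folds of -1.03 ± 0.22 and 0.61 ± 0.08 log2. Of 20 genes of proteases and their inhibitors 0 were called (median 0.04 log2).

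Adventitial and progenitor markers, which are known for fibroblasts around vessels, were lower for 2 of 14 genes (Dpp4 and Sema3c) and higher for 0, against 1.41% and 0.520% of all genes, with a median of -0.42 log2. Their summed level was 4316, 4825 and 5923 CPM in cluster 5 against 3838, 5270 and 5252 CPM in cluster 2, 2569, 2692 and 2478 CPM in cluster 3 and 8779, 8848 and 10622 CPM in cluster 4, so that cluster 4 alone was above cluster 5 on every plate. Sema3c, a guidance factor, was at 14.4, 28.1 and 38.6 against 90.9, 94.8 and 144.7 CPM (-2.06 ± 0.46 log2), and outside cluster 5 it was found mainly in cluster 4, at a mean of 214.2 CPM. Cd248 (endosialin) was at 369, 353 and 427 against 647, 792 and 875 CPM, with means of 289.8, 205.6 and 1353 CPM in clusters 2, 3 and 4 and 383 CPM in cluster 5. The homeobox gene Meox1 was at 77.6, 115.6 and 213.7 against 322, 355 and 321 CPM (-1.41 ± 0.75 log2). Of 35 cardiac and mesenchymal transcription factor genes 0 were called in either direction (median -0.21 log2).

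Secreted signals differed by single genes. Of 22 genes of the TGF-beta and BMP pathway, the extracellular antagonists Bmper and Fst were higher and the antagonists Fstl3 and Nbl1 were lower (median -0.49 log2). Fst (follistatin), which like Fstl3 binds activin, was at 75.6, 57.8 and 62.2 against 22.9, 18.8 and 2.76 CPM (2.44 ± 1.41 log2). Cluster 3 had similar levels of Fst on the C57BL6 plates, 65.1 and 59.98 CPM, and 0 CPM in its 7 cells on heart_320s. Inhbb, an activin subunit, had 10.9, 28.2 and 14.1 against 39.6, 49.2 and 99.6 CPM, below the sum of clusters 2 to 4 on each plate but above cluster 3, which was at 3.46, 0.423 and 1.39 CPM. Of 15 Wnt pathway genes 0 were higher, and Dkk3 and Nkd1, an intracellular antagonist, were lower (median -0.18 log2). Nkd1 was at 1.75, 0.136 and 0.146 against 12.1, 17.9 and 9.44 CPM and had its highest mean in cluster 3, at 90.2 CPM. Of 26 growth factor genes, Vegfd, a ligand of lymphatic and vascular endothelium, was higher at 66.9, 75.7 and 43.96 against 6.67, 30.4 and 13.9 CPM (2.01 ± 1.00 log2) and 0 were lower (median 0.20 log2). Of 5 PDGF pathway genes 0 were called (median -0.24 log2).

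Of 5 insulin-like growth factor binding protein genes, Igfbp5 was lower, at 4.50, 4.29 and 0.694 against 159.1, 88.4 and 41.2 CPM (-4.53 ± 0.40 log2), and 0 were higher (median -0.29 log2). Igfbp5 was at 154.4, 1.38 and 24.99 CPM in cluster 2, 319.6, 279.7 and 0.463 CPM in cluster 3 and 57.9, 90.2 and 58.5 CPM in cluster 4, so that cluster 2 on heart_316s and cluster 3 on heart_320s were below cluster 5. Igfbp3 had 112.2, 117.5 and 172.96 against 363, 248.6 and 296 CPM. Most of the latter was in cluster 3, whose mean was 2254 CPM, and clusters 2 and 4 were at 51.6 and 32.8 CPM, below cluster 5. Of 16 vasoactive genes, 2 were higher, Adm among them, and 0 lower, while the median was -0.46 log2. The endothelin receptor gene Ednra had 1.29, 8.72 and 12.96 against 30.5, 16.7 and 32.5 CPM.

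**Figure D5:**
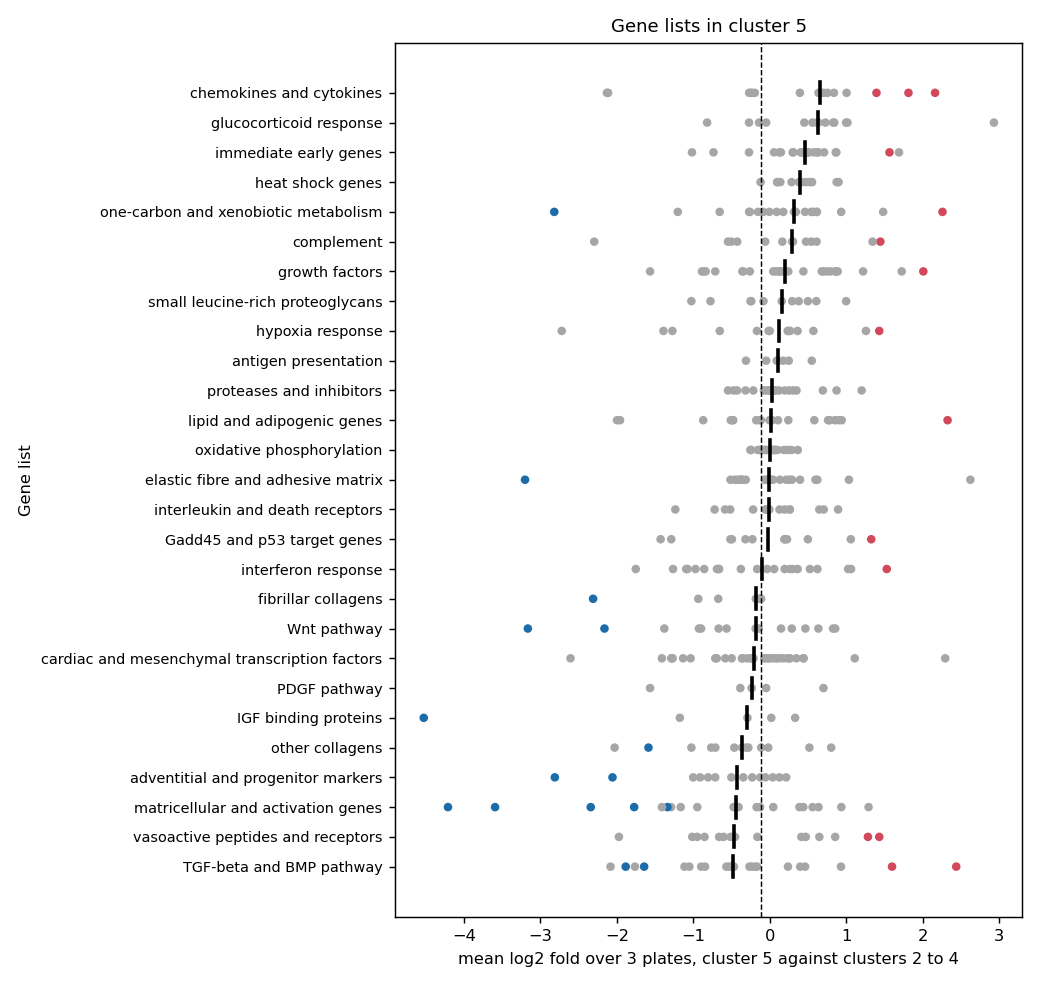
Fold of cluster 5 over clusters 2 to 4 in log2 units for the genes of each list, with 1 point per gene, red or blue where it was 1 log2 or more higher or lower on all 3 plates, a black bar at the list's median and a dashed line at the median of all genes. Chemokines, the glucocorticoid response and immediate early genes have the highest medians, at 0.65, 0.62 and 0.47, and TGF-beta and BMP genes the lowest, at -0.49.

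Within cluster 5, the PdgfrbGFP plate was set against both C57BL6 plates. Of 10941 genes with a mean of 5 CPM or more over the 3 sums, 0.941% were higher by 2 log2 or more and 618 (5.65%) were lower by as much against both. Between the 2 C57BL6 plates alone, 414 genes (3.78%) were 2 log2 or more higher on heart_316s and 729 (6.66%) lower, so that plates of the same strain also lay far apart. In clusters 2 to 4, 2 of these higher genes and 59 of the 618 lower ones were also past 2 log2 against both plates. With 1 plate of PdgfrbGFP and no animal named, no test was made. The marker genes were less far apart. Inmt was lowest on the PdgfrbGFP plate and Ccl11 highest on heart_203s, and 0 of the 6 markers passed 2 log2.

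The genes with the largest differences between the PdgfrbGFP plate and both C57BL6 plates came from few cells. Cfb (complement factor B) was at 55.4, 74.96 and 0.511 CPM, with a count in 16.1%, 17.5% and 2.86% of the cells of cluster 5. Gm20547 overlaps it and its neighbour C2 and had 70.5, 115.9 and 0.548 CPM, and reads of these genes cannot be told apart. Angpt2, an antagonist ligand of the TIE2 receptor, was at 35.8, 38.9 and 0.219 CPM, Rspo1, an activator of Wnt signalling, at 28.96, 31.2 and 0.0365 CPM and the amino acid transporter gene Slc38a5 at 27.3, 43.6 and 0 CPM. Slc38a5 also had 8.55, 8.22 and 0 CPM in clusters 2 to 4, and Angpt2 had 32.1, 16.2 and 18.1 CPM there. Fbxl8, Faim2 and Spock2 were likewise lower on the PdgfrbGFP plate. In the other direction, the stress cytokine gene Gdf15 was at 0.607, 0 and 41.2 CPM with a count in 6.90%, 0% and 17.1% of the cells, and the platelet chemokine gene Ppbp at 0.0714, 0.0904 and 24.3 CPM. Nat2, Gimap6, Dtna, Mblac1, Galnt18 and Pkp2 completed the group.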

How the data were processed

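The members and the gene lists were chosen with earlier results of these data known. Per the labels and the study's methods, single cells were sorted into plates with 384 wells, Smart-seq2 libraries were demultiplexed with bcl2fastq, trimmed with Trim Galore and mapped to GRCm38 with TopHat2 (Bowtie), and the authors counted reads per gene with featureCounts of Subread. A removal of "doublets" with samtools is described, and whether it means duplicate reads is not stated. The annotation release and the strand setting are not given in the sources used here. The authors removed shallow cells, cells rich in spike-ins or mitochondrial counts, likely doublets and cells of other types before they clustered the rest with pagoda2. The deposited values were raw counts per gene and cell without normalization, and 0 columns were left unused. No cell was left out here and no doublet caller was run.

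ERCC spike-ins, 1.82% of all counts, stayed out of library sizes. Counts were summed per plate and cluster, and genes with a mean of 5 CPM over the 6 sums were compared. The named genes were the 6 markers, per direction the 15 with the largest mean fold among called genes with a count in 30% of cells on the higher side, the 10 furthest from each cluster, up to 4 genes per list beside those called in it, and 8 per direction between the PdgfrbGFP plate and the C57BL6 plates. Some genes that this rule names are not reported here. Values came from Python 3.11.15 with pandas 2.3.3 and the factors of the alternative scalings from edgeR 4.0.16 in R 4.3.3. The code of the comparison was also run on simulated counts with changes put in, which checks the code and not these results. Gene positions come from GENCODE for GRCm38 and promoters from RefSeq. The Wilson intervals (95%) cover counting error only, since PCR copies were not told apart from molecules.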

Additional observations from a re-analysis of the deposited data

Results flagged for a closer look

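For 25 of the named genes the fold of cluster 5 over clusters 2 to 4 had 1 sign on both C57BL6 plates and the other on the PdgfrbGFP plate. For 8 of them it was 1 log2 or more from 0 on every plate, and these differences were not tested. The makeup of clusters 2 to 4 also differed between plates, with 55, 35 and 7 cells of cluster 3. Fmod (fibromodulin) was at 2.76 log2 on the PdgfrbGFP plate, against -2.25 and -2.84 on the C57BL6 plates. The complement genes C2, Cfb and the overlapping Gm20547 were at -3.57, -3.50 and -3.88 log2 there and positive on both C57BL6 plates, at 3.08 and 2.33 log2 for C2. Gdf15 was at 2.22 log2 on the PdgfrbGFP plate, Dtna at 1.40, Mblac1 at 3.38 and Galnt18 at 3.99, and all 4 were negative on both C57BL6 plates. All 8 were found in a minority of the cells of cluster 5.

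The 3 cells of cluster 5 from the other strains entered no comparison, and some of their marker values were above the sum over clusters 2 to 4 of their own plate. The Cspg4dsRED cell had 3648 CPM of Gadd45g, 571 CPM of Adm and 373 CPM of Ifi205, where that sum was at 134.7, 82.7 and 237.5 CPM. It had 0 counts of Inmt and Ccl11 and 5.33 CPM of Cxcl14 (sum 611 CPM), and 821 CPM of Postn (sum 661 CPM) and 1541 CPM of Cilp (sum 687 CPM). Of the Acta2GFP cells, the first had 2028 CPM of Gadd45g, 321 CPM of Adm and 246.9 CPM of Ifi205, and the other had 1785 CPM of Inmt, 1103 CPM of Gadd45g and 202.4 CPM of Ifi205. Below the sum were Inmt, Cxcl14 and Ccl11 in the first, at 7.12, 92.6 and 2.37 CPM, and Adm, Cxcl14 and Ccl11 in the other, at 5.33, 10.7 and 0 CPM. The sums over clusters 2 to 4 of that plate were 151.03 CPM for Inmt, 198.4 CPM for Gadd45g, 138.8 CPM for Adm, 101.5 CPM for Ifi205, 193.8 CPM for Cxcl14 and 83.6 CPM for Ccl11. The Acta2GFP cells had 9.50 and 69.3 CPM of Postn (sum 817 CPM) and 23.7 and 10.7 CPM of Cilp (sum 597 CPM). Single cells vary more than sums, and these values have no replicate.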

How the results depend on the processing

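Of 561 fold values of 51 called and named genes under 11 alternatives, 531 stayed within 1 SD of the plates, 30 moved further and 0 changed sign. These genes were called for a fold of 1 log2 or more to the same side on all 3 plates. Their mean fold could therefore not change sign with 1 plate left out, and nothing is read from the 0. The shares of genes called moved more. Against clusters 2 to 4 (0.520% higher, 1.41% lower), 0.251% and 0.753% were left with a pseudocount of 5 CPM, 0.334% and 0.574% with a minimum of 20 CPM, and 1.00% of 26026 genes were lower with no minimum. With the C57BL6 plates summed the shares were 1.15% and 2.82%, and with 1 plate left out 1.47% to 2.32% and 3.55% to 4.93%, where fewer plates had to pass. The highest, 2.32% and 4.93%, were without heart_203s, against 1.47% and 3.55% without heart_316s and 1.61% and 3.70% without heart_320s.

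Against each cluster (10 genes higher, 2 lower), 1 gene was lower with TMM and with median of ratios scaling, 0 with a pseudocount of 5 CPM and 0 in thinned cells, where 12 were higher and 6 of the 10 among them, and 6 were lower without cluster 3 of heart_320s. A minimum of 20 CPM left 3 and 1, C57BL6 plates summed gave 31 and 8, and leaving out 1 plate gave 34 to 70 and 15 to 35. Within cluster 5, PdgfrbGFP against C57BL6 (0.941% higher, 5.65% lower) gave 0.302% and 1.12% with a pseudocount of 5 CPM, 0.110% and 1.77% with a minimum of 20 CPM, 1.44% higher with no minimum and 1.47% higher in thinned cells. Without heart_203s the shares were 6.43% and 9.05%, and without heart_316s 3.37% and 7.85%. Apart from what fewer plates or genes bring by construction, the cause was not tested. As a share of clusters 2 to 5, cluster 5 was 31.5% on heart_203s and 49.1% on heart_320s. Each fold against clusters 2 to 4 was taken within a plate, and cells were not paired further, since the labels name no animal. At 50133 to 726478 counts per cell, a gene without a count in a cell is not shown to be absent from it.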

Other observations

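Among the 58 genes higher in cluster 5 were others that belonged to no list, named here after their values were seen. Ntf3, the gene of the nerve growth factor relative neurotrophin 3, was at 72.4, 121.8 and 84.6 CPM in cluster 5 and 24.4, 18.9 and 34.9 CPM in clusters 2 to 4 (fold 1.81 ± 0.73 log2, SD over 3 plates), with a count in 44.8%, 18.6% and 43.8% of the cells of cluster 5. Gnai1, an inhibitory G protein subunit, was at 60.02, 81.8 and 45.3 against 11.7, 37.99 and 8.01 CPM (1.91 ± 0.71 log2). Zc3h12a, a ribonuclease that degrades cytokine transcripts, was at 30.8, 29.5 and 8.73 against 12.1, 12.7 and 2.22 CPM, and Heph, an iron oxidase, at 14.4, 17.4 and 16.7 against 2.03, 4.22 and 3.00 CPM. Among the lower genes, Dio2, which activates thyroid hormone, was at 5.71, 0.181 and 8.00 against 29.1, 39.6 and 38.8 CPM and Adgre5 (CD97), an adhesion receptor, at 50.2, 101.3 and 100.6 against 141.4, 220.99 and 208.8 CPM (-1.21 ± 0.23 log2). Each of these was on the same side on all 3 plates, as being called required.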
